A study of Homo sapiens with 6 samples.

Results

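AXL, TYRO3, MET, FGFR1, FGFR4, PDGFRB, IGF1R, DDR1 and DDR2 are receptor tyrosine kinases, several of which are linked to mesenchymal and invasive cancer cells. GAS6 is a ligand of AXL and TYRO3. These 10 genes were taken by symbol from the 74852 genes listed for MDA-MB-231 cells, a human triple-negative breast cancer (TNBC) line of mesenchymal type. The cells received siRNAs without a target (si-CTRL) or siRNAs against the mitotic kinase NEK2 (si-NEK2) in 2 rounds of transfection. By the sample records they were harvested 24 h after the second. The methods of the study give a different time after transfection and do not say from which round it is counted. PolyA RNA was sequenced from 3 libraries per group, all from 1 cell line and with 1 pool of siRNAs per group. The libraries are given as triplicates with no further label, so that p-values measure the spread between these samples, which may be technical, and effects of NEK2 loss and other effects of the pool cannot be told apart.

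A receptor tyrosine kinase spans the plasma membrane, binds a ligand outside the cell and phosphorylates itself and docking proteins inside it, from which the RAS-MAPK and PI3K-AKT pathways start. AXL, TYRO3 and MERTK form the TAM family. GAS6 binds each of them, and PROS1 binds TYRO3 and MERTK. MET binds HGF, the FGFRs bind FGFs together with heparan sulfate, PDGFRB binds PDGFs, IGF1R binds insulin-like growth factors, and DDR1 and DDR2 bind collagens. AXL and MET are known for their part in migration, in epithelial to mesenchymal transition (EMT) and in resistance to kinase inhibitors in TNBC.

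Values are reads per gene divided by the size factor of the library, called normalized counts. Between 52625492 and 87454509 reads were assigned to genes in each library, and 1 read was worth 0.818 to 1.25 normalized counts. NEK2 itself (chromosome 1 from 211831601 to 211848972, hg19) had a mean of 3438 ± 229 after si-CTRL and of 344.9 ± 54.4 after si-NEK2, where means are given ± SD over the 3 libraries of a group (n = 3) throughout. Along the second principal component, si-CTRL replicate 1 lay far from the rest. Markers of a mesenchymal, triple-negative line were checked. VIM had 157264 normalized counts in si-CTRL cells and 138731 in si-NEK2 cells, whereas CDH1, EPCAM, ESR1 and PGR had means of at most 8.22 in either group. ERBB2, the HER2 receptor, had 2822 normalized counts in si-CTRL cells and 4020 in si-NEK2 cells, a log2 fold change of 0.53 (adjusted p = 0.00744, limma) under a fold change of 1.5, which became 0.68 and passed it without si-CTRL replicate 1. Of the 9 tested genes among 13 markers of the line and of other cell types, 1 passed both thresholds, the endothelial cadherin CDH5, whose mean fell from 30.5 to 13.7 normalized counts. The luminal keratins KRT8 and KRT18 and the smooth muscle gene ACTA2 were also among the 9, and their levels are not given here. Low levels of epithelial markers are therefore shown for CDH1 and EPCAM only. The leukocyte gene PTPRC and the endothelial gene PECAM1 had means of at most 13.7 normalized counts, and CD68 shares its row with EIF4A1 and other genes.

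TYRO3 fell and IGF1R rose after silencing of NEK2, and the other 8 genes stayed within a fold change of 1.5. Regulated genes were those that reached both thresholds of the study's methods, a p-value at or under 0.05 (taken here without adjustment) and a fold change of 1.5 or more, in limma on log2(normalized counts + 1). All 10 genes passed the filter on low values (mean ≥ 10 normalized counts) and were tested. With 2 of 10 regulated, the share of the receptor genes was close to the 22.5% of all 18717 tested genes that were regulated (8.23% higher and 14.3% lower). Of all regulated genes 36.6% were higher, a split that moved to 21.3% with equal totals per library, where the median log2 fold change of all genes was -0.11. Without the fold threshold 6 of the 10 passed, against 51% of all tested genes. With a Benjamini-Hochberg adjusted p at or under 0.05 (limma), 4 of the 10 passed, against 43.1% of all tested genes: IGF1R, DDR1 and MET were higher (21.8% of all) and TYRO3 was lower (21.3% of all). TYRO3 and IGF1R also passed with the fold threshold added to the adjusted p, as did 20.6% of all genes. The si-NEK2 and si-CTRL libraries did not overlap for 5 of the 10 genes, against 55% of all tested genes. The log2 fold change was positive for 6 and negative for 4 of the 10, with a median of 0.12, against 0.01 over all tested genes. The median size of the log2 fold change, whatever its sign, was 0.21 for the 10 genes and 0.33 for all tested genes.

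**Figure D1:**
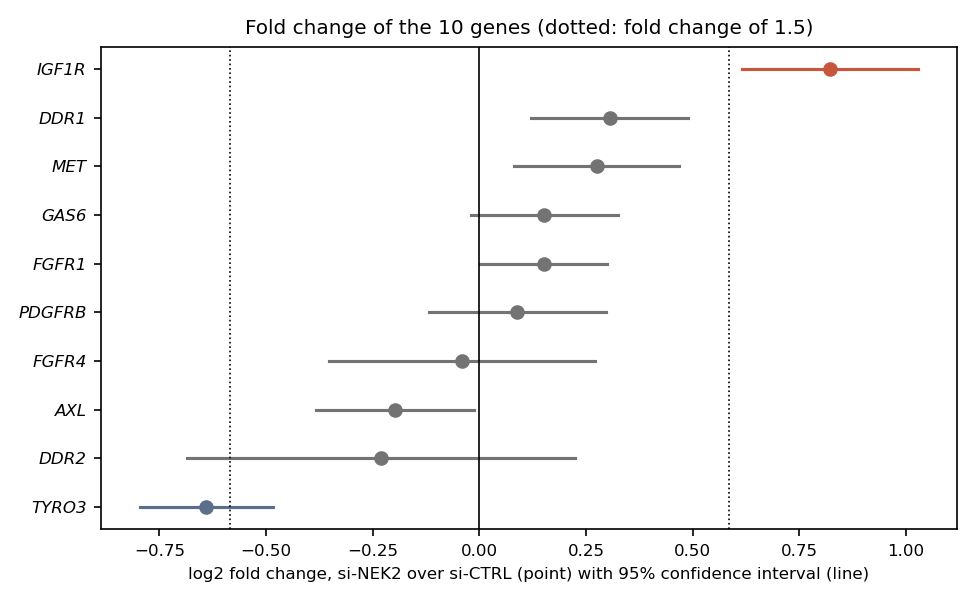
Log2 fold change of each of the 10 genes in si-NEK2 over si-CTRL cells (x axis, points) with its 95% confidence interval from limma (lines); dotted lines mark a fold change of 1.5, and red and blue mark genes past both thresholds. IGF1R, at 0.82, and TYRO3, at -0.64, are the genes past a dotted line, and the interval of TYRO3 reaches back across it to -0.48.

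TYRO3 and IGF1R both lie on chromosome 15, and their promoters are shown because they are the 2 regulated genes and moved in opposite directions. Each line gives the 250 bases before the start listed by RefSeq (GRCh38.p14, plus strand), 5′ to 3′, at chr15:41558962-41559211 for the first of the 2 listed starts of TYRO3 and at chr15:98648289-98648538 for IGF1R. Capitals mark GC boxes, searched as GGGCGG on both strands, which are the classical site of SP1-family factors.
TYRO3: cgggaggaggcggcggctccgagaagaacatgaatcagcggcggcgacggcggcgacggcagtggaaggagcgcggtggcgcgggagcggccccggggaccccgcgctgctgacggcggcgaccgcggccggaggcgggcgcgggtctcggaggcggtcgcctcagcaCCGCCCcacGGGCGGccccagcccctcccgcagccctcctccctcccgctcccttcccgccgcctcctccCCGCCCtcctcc
IGF1R: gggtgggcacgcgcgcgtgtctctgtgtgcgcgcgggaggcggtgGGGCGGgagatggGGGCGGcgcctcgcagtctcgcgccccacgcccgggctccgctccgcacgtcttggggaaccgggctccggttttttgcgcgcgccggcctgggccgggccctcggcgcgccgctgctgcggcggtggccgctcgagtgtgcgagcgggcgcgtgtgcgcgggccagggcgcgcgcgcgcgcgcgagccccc
Both printed windows were very rich in G and C, at 80% for TYRO3 and 81.2% for IGF1R. Over 35116 promoter windows of the same length the median was 58% and the 95th percentile 78.4%. The window of TYRO3 held 3 GC boxes and that of IGF1R held 2, and 42.6% of all windows held at least 1. That share is over windows of any G and C content, and was not matched to windows as rich as these. Neither trait was particular to the 2 regulated genes. Among genes that were not regulated, the first listed window of FGFR4 had 79.6% G and C and 7 GC boxes. The window of GAS6 had 66.8% and 3 GC boxes, and that of MET 68.4% and 2. The 3 windows of DDR2 had 40% to 44.4% and held 0 GC boxes. The letters TGANTCA are looser than the site of AP-1 factors, TGACTCA or TGAGTCA. They were found once in the window of TYRO3, as tgaatca, which is not that site. The window of IGF1R did not hold these letters, and 6.57% of all windows did. The window before the other listed start of TYRO3 (chr15:41559722-41559971) had 58.8% G and C and held 0 matches to either motif, and which start these cells use was not measured. A match to these letters is a description of the sequence, and no binding was measured here.

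AXL had the highest transcript level per length of the 57 receptor tyrosine kinases ranked here, and differed by less than a fold change of 1.5 between the groups. AXL (GSHG0014943, chromosome 19 from 41725104 to 41767672, hg19) had 52497, 50162 and 43113 normalized counts in si-CTRL replicates 1, 2 and 3 and 41686, 41247 and 43805 in si-NEK2 replicates 1, 2 and 3. The lowest si-CTRL library lay inside the range of the si-NEK2 libraries, so that the groups overlapped. The mean was 48591 ± 4885 in si-CTRL cells and 42246 ± 1368 in si-NEK2 cells, a log2 fold change of -0.20 (SE 0.08, adjusted p = 0.0818, limma). Its size depended on the scaling, at -0.33 with equal totals per library and -0.38 with quantile normalization, where the adjusted p (limma) was 0.0131 and 0.00971, and without si-CTRL replicate 3 it was -0.28 (adjusted p = 0.0172). The adjusted p of AXL lay between 0.00971 and 0.223 over all alternatives, and its fold change stayed under 1.5 in each.

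TYRO3, the TAM receptor that is best known from the nervous system, was the member of the set that fell. TYRO3 (GSHG0009801, chromosome 15 from 41851191 to 41871534, hg19) had 3043, 3061 and 2969 normalized counts in si-CTRL replicates 1, 2 and 3 and 1832, 1996 and 1995 in si-NEK2 replicates 1, 2 and 3. All si-NEK2 libraries were below all si-CTRL libraries, with a gap many times the spread within either group. The mean fell from 3024 ± 48.7 to 1941 ± 94.4, so that 64.2% remained (log2 fold change -0.64, SE 0.07, adjusted p = 0.000164, limma). Its 95% confidence interval ran from -0.80 to -0.48 on the log2 scale, so that a fold change under 1.5 was within it, although the call held in every alternative at this threshold (-0.77 to -0.60).

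GAS6, the vitamin K-dependent ligand that bridges TAM receptors to phosphatidylserine, had 4736, 4977 and 5361 normalized counts in si-CTRL replicates 1, 2 and 3 and 5872, 5679 and 5204 in si-NEK2 replicates 1, 2 and 3. The groups overlapped through si-NEK2 replicate 3, which lay below the highest si-CTRL library. The log2 fold change of GAS6 (GSHG0008667, chromosome 13 from 114523524 to 114567076, hg19) was 0.15 (SE 0.08, adjusted p = 0.137, limma), with a 95% confidence interval from -0.02 to 0.32. It was 0.02 with equal totals per library.

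Of 6 other tested TAM genes, 1 rose, 1 fell and 4 were not regulated, with a median log2 fold change of -0.03. Galectin 3 (LGALS3), a secreted lectin also described as a ligand of MERTK, rose from 3301 ± 295 to 5766 ± 44.9 normalized counts, a log2 fold change of 0.81 (adjusted p = 9.38e-05, limma). TUB, a tubby protein also described as a MERTK ligand, fell from 473 ± 40.2 to 253 ± 5.81, a log2 fold change of -0.90 (adjusted p = 0.000239, limma). Neither is known first as a TAM ligand. MERTK, the third receptor, and PROS1, the other ligand, are named for their place in the family, after their values were seen. MERTK had 205, 144 and 149 normalized counts in si-CTRL replicates and 102, 136 and 130.2 in si-NEK2 replicates, a log2 fold change of -0.43 (adjusted p = 0.0893, limma), and PROS1 had a log2 fold change of -0.11 (adjusted p = 0.579, limma).

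**Figure D2:**
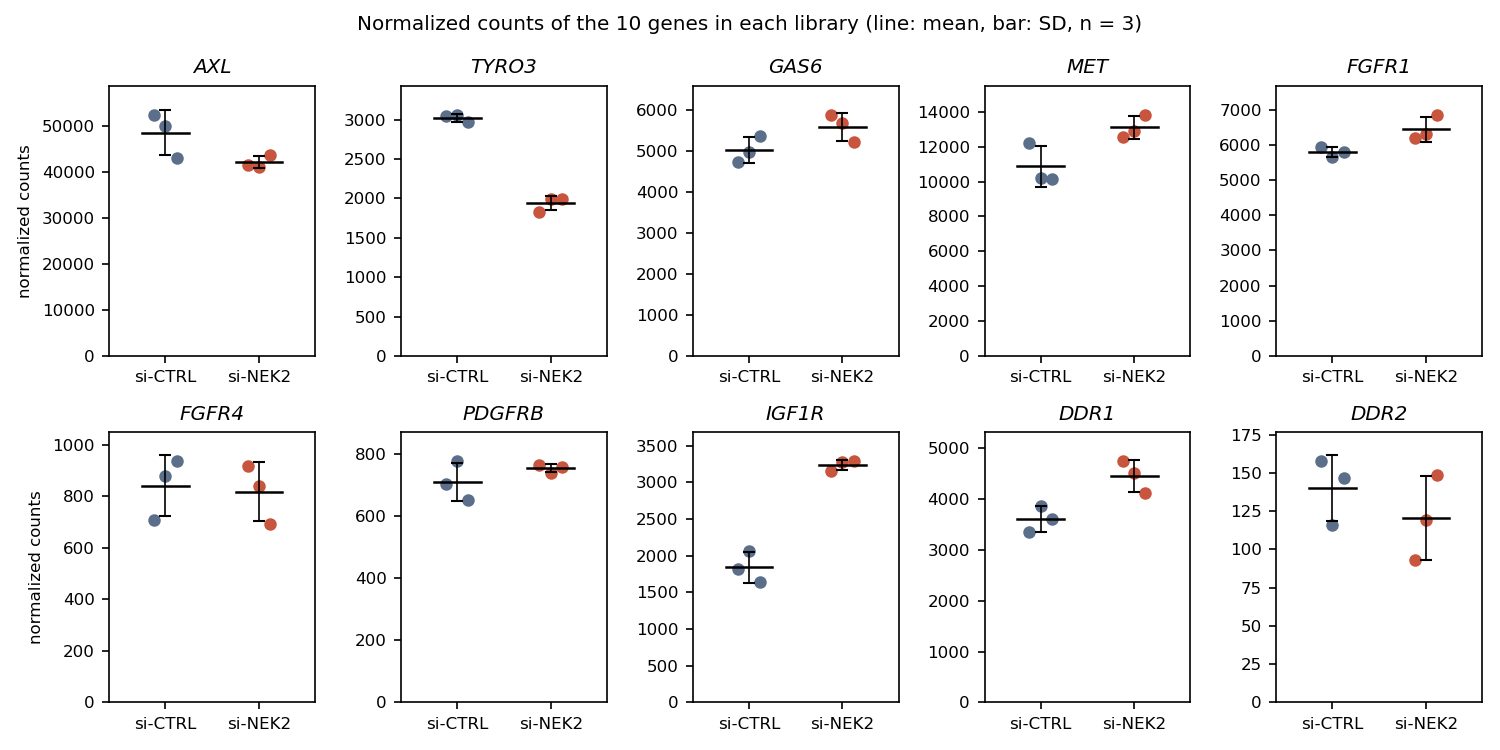
Normalized counts (y axis, each panel from 0 on its own scale) of the 10 genes in the si-CTRL and si-NEK2 libraries; points are libraries, lines are means and bars are SD (n = 3). The groups are apart for TYRO3 (2969 or more against 1996 or less) and IGF1R (2066 or less against 3163 or more), more narrowly for MET, FGFR1 and DDR1, and overlap for AXL, GAS6, FGFR4, PDGFRB and DDR2.

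MET, the receptor of hepatocyte growth factor, was higher in si-NEK2 cells by less than a fold change of 1.5, while the transcript of its ligand fell. MET (GSHG0027663, chromosome 7 from 116312413 to 116438439, hg19) had 12228, 10229.7 and 10137 normalized counts in si-CTRL replicates 1, 2 and 3 and 12579, 12922 and 13822 in si-NEK2 replicates 1, 2 and 3. The si-NEK2 libraries were above the si-CTRL libraries, but si-CTRL replicate 1 came close to the lowest of them. The log2 fold change was 0.28 (SE 0.09, adjusted p = 0.0289, limma), with a 95% confidence interval from 0.08 to 0.47. The adjusted p of MET lay between 0.000291 and 0.235 over the alternatives. It was above 0.05 with equal totals per library (log2 fold change 0.15, adjusted p = 0.198), with quantile normalization (0.13, adjusted p = 0.235), with limma's eBayes without an intensity trend (adjusted p = 0.0791), with the replicate number as a block (adjusted p = 0.066) and without any 1 of the libraries other than si-CTRL replicate 1 (from 0.0555 without si-NEK2 replicate 1 to 0.104 without si-NEK2 replicate 3). The row of the noncoding RNA LINC01510 overlaps MET by 15610 bases and fell from 82.1 to 32.4 normalized counts, and its mean was 0.477% of that of MET.

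Of 13 other tested genes of the HGF and MET system, 2 rose, 4 fell and 7 were not regulated, with a median log2 fold change of -0.05. HGF had 114, 91.0 and 131 normalized counts in si-CTRL replicates 1, 2 and 3 and 12.3, 16.3 and 24.5 in si-NEK2 replicates 1, 2 and 3. The groups were far apart, and its log2 fold change was -2.63 (SE 0.28, adjusted p = 0.000161, limma). PLAU, the urokinase protease, fell from 30487 ± 6563 to 12025 ± 864 normalized counts, a log2 fold change of -1.32. CD44, the hyaluronan receptor that can act as a MET coreceptor, also fell (log2 fold change -0.76, adjusted p = 0.00332, limma), although without si-CTRL replicate 1 it was just under a fold change of 1.5 (-0.58). SPINT2, an inhibitor of the proteases that activate HGF, rose with a log2 fold change of 0.93 from a low level (62.8 ± 23.7 to 115 ± 5.02 normalized counts). MST1R, the MET-related receptor RON, rose (log2 fold change 0.63, 63.5 ± 9.66 to 98.8 ± 13.1 normalized counts, adjusted p = 0.0244, limma). It was under a fold change of 1.5 with equal totals (0.50), and also when si-CTRL replicate 1 (0.50) or si-NEK2 replicate 3 (0.55) was left out.

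FGFR1 and FGFR4, receptors of fibroblast growth factors, were not regulated. FGFR1 (GSHG0029535, chromosome 8 from 38268656 to 38326352, hg19) had 5952, 5651 and 5798 normalized counts in si-CTRL replicates 1, 2 and 3 and 6184, 6298 and 6851 in si-NEK2 replicates 1, 2 and 3. The groups did not overlap, but the difference was small, with a log2 fold change of 0.15 (SE 0.07, adjusted p = 0.0963, limma), and it was 0.02 with equal totals per library. FGFR4 (GSHG0024509, chromosome 5 from 176513873 to 176525143, hg19) had 707, 879 and 935 normalized counts in si-CTRL replicates 1, 2 and 3 and 919, 840.5 and 692 in si-NEK2 replicates 1, 2 and 3. These libraries overlapped over nearly their whole range. The log2 fold change of FGFR4 was -0.04 (SE 0.14, adjusted p = 0.835, limma), with a 95% confidence interval from -0.35 to 0.27, and its sign turned without si-CTRL replicate 3 (0.04) or without si-NEK2 replicate 3 (0.07).

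Around these receptors, 4 of 16 other tested FGF genes rose, 6 fell and 6 were not regulated, with a median log2 fold change of -0.05. The ligand FGF2 had 14628, 17606 and 17815 normalized counts in si-CTRL libraries 1, 2 and 3 and 7836, 7940.3 and 8426 in si-NEK2 libraries 1, 2 and 3. Each si-NEK2 library was well below each si-CTRL library, at a log2 fold change of -1.04 (SE 0.09, adjusted p = 4.48e-05, limma). SDC4, a syndecan that carries heparan sulfate, fell from 37631 ± 4855 to 17539 ± 789 normalized counts, a log2 fold change of -1.09. FGFRL1, an FGF receptor without a kinase domain, also fell (log2 fold change -1.02, adjusted p = 0.00668, limma). FGFBP1, a secreted carrier that releases FGFs from the matrix, rose from 33.5 ± 3.88 to 208 ± 16.4 normalized counts, a log2 fold change of 2.60. FGFR2 rose from 59.3 ± 13.2 to 149 ± 23.7, a log2 fold change of 1.33, and FRS2, the docking protein of FGF receptors, from 542 ± 34.4 to 1075 ± 38.4, a log2 fold change of 0.99 (adjusted p = 5.95e-05, limma).

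PDGFRB, the PDGF receptor of pericytes and fibroblasts, was at a low level and was not regulated. PDGFRB (GSHG0025173, chromosome 5 from 149493400 to 149535426, hg19) had 702, 776 and 652 normalized counts in si-CTRL replicates 1, 2 and 3 and 764, 738 and 759 in si-NEK2 replicates 1, 2 and 3. All si-NEK2 libraries lay within the range of the si-CTRL libraries. The log2 fold change was 0.09 (SE 0.09, adjusted p = 0.468, limma), with a 95% confidence interval from -0.12 to 0.30, and it was -0.04 with equal totals per library. Of 6 other tested PDGF genes, 1 rose, none fell and 5 were not regulated, with a median log2 fold change of 0.27. Among the 6, PDGFRA is in a row shared with FIP1L1, so that its level is uncertain. The 1 that rose was the ligand PDGFA, from 307 ± 4.39 to 494 ± 27.4 normalized counts, a log2 fold change of 0.68 (adjusted p = 0.000581, limma), which was 0.55, under a fold change of 1.5, with equal totals.

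IGF1R, the type 1 receptor of insulin-like growth factors, was the member of the set that rose. IGF1R (GSHG0010191, chromosome 15 from 99191768 to 99507758, hg19) had 1825, 2066 and 1636 normalized counts in si-CTRL replicates 1, 2 and 3 and 3163, 3279.7 and 3287 in si-NEK2 replicates 1, 2 and 3. The groups were far apart, and the si-NEK2 libraries lay closer together than the si-CTRL libraries. The mean rose from 1842 ± 215 to 3243 ± 69.7, a fold change of 1.77 (log2 fold change 0.82, SE 0.09, adjusted p = 0.000192, limma). Its 95% confidence interval, from 0.62 to 1.03, lay above a fold change of 1.5, and the log2 fold change lay between 0.69 and 0.91 over all alternatives.

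The IGF system around the receptor moved in both directions, with 2 of 16 other tested genes higher, 7 lower and 7 not regulated, and a median log2 fold change of -0.25. IRS2, a docking protein of IGF1R and of the insulin receptor, had 1127, 1278 and 1265 normalized counts in si-CTRL replicates and 2973, 2837 and 2525 in si-NEK2 replicates. As for IGF1R, no si-NEK2 library overlapped the si-CTRL libraries, and the log2 fold change of IRS2 was 1.18 (SE 0.09, adjusted p = 2.99e-05, limma). IGFBP6, a secreted IGF-binding protein, rose (log2 fold change 0.63, adjusted p = 0.0181, limma), but was under a fold change of 1.5 without si-CTRL replicate 1 (0.50), si-NEK2 replicate 1 (0.51) or si-NEK2 replicate 2 (0.55), and with equal totals (0.50) or quantile normalization (0.53). The row of the ligand IGF2, which is shared with INS and INS-IGF2, fell from 129 ± 16.3 to 22.8 ± 9.87 normalized counts, a log2 fold change of -2.54. Stanniocalcins, which inhibit the proteases that cleave IGF-binding proteins, also fell, with log2 fold changes of -3.04 for STC1 (adjusted p = 1.79e-05, limma) and -1.32 for STC2 (adjusted p = 1.16e-05, limma).

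DDR1 and DDR2, the collagen receptors, were not regulated, and DDR1 was the higher of the 2 by far. DDR1 (GSHG0025588, chromosome 6 from 30850390 to 30867931, hg19, in a row shared with MIR4640) had 3349.6, 3855 and 3606 normalized counts in si-CTRL replicates 1, 2 and 3 and 4735, 4513 and 4111 in si-NEK2 replicates 1, 2 and 3. The si-NEK2 libraries were above all si-CTRL libraries, at a log2 fold change of 0.31 (SE 0.08, adjusted p = 0.0151, limma) with a 95% confidence interval from 0.12 to 0.49. The adjusted p was above 0.05 with equal totals per library (log2 fold change 0.18, adjusted p = 0.118), with quantile normalization (0.22, adjusted p = 0.0656), without si-NEK2 replicate 1 (0.26, adjusted p = 0.0684) and without si-NEK2 replicate 2 (0.29, adjusted p = 0.0645). The whole of DDR1 lies within the span of the TUBB row (from 30687978 to 30959534), which had 109491 normalized counts in si-CTRL and 131156 in si-NEK2 cells and a log2 fold change of 0.26. Whether reads of one were counted in the other was not tested, and the value of DDR1 is uncertain for this reason.

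DDR2 (GSHG0001127, chromosome 1 from 162602228 to 162750237, hg19) was the lowest member, with between 114 and 154 reads in each library. Its normalized counts were 157, 116 and 146 in si-CTRL replicates 1, 2 and 3 and 93.3, 119 and 148 in si-NEK2 replicates 1, 2 and 3, so that the groups overlapped. The log2 fold change of -0.23 had an SE of 0.20 (adjusted p = 0.386, limma) and a 95% confidence interval from -0.69 to 0.22, which holds both 0 and a fall by a fold change of 1.5. It moved to -0.06 without si-NEK2 replicate 1, to -0.14 without si-CTRL replicate 1, to -0.36 without si-CTRL replicate 2, to -0.39 without si-NEK2 replicate 3, to -0.36 with equal totals and to -0.03 with quantile normalization (adjusted p from 0.163 to 0.921 over all alternatives, limma, edgeR and DESeq2). Of 10 tested collagen ligands, 2 rose, 3 fell and 5 were not regulated, with a median log2 fold change of -0.13. The fibrillar genes COL3A1 (in a row with MIR3606, 34.7 ± 9.85 to 129.7 ± 10.6 normalized counts) and COL1A2 (39.0 ± 9.86 to 73.8 ± 11.9) rose from low levels, with log2 fold changes of 1.91 and 0.92. All 3 tested chains of collagen VI fell, with log2 fold changes of -1.17 for COL6A3, -0.67 for COL6A1 and -0.67 for COL6A2. Without si-CTRL replicate 1, COL6A1 was under a fold change of 1.5 (-0.56).

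**Figure D3:**
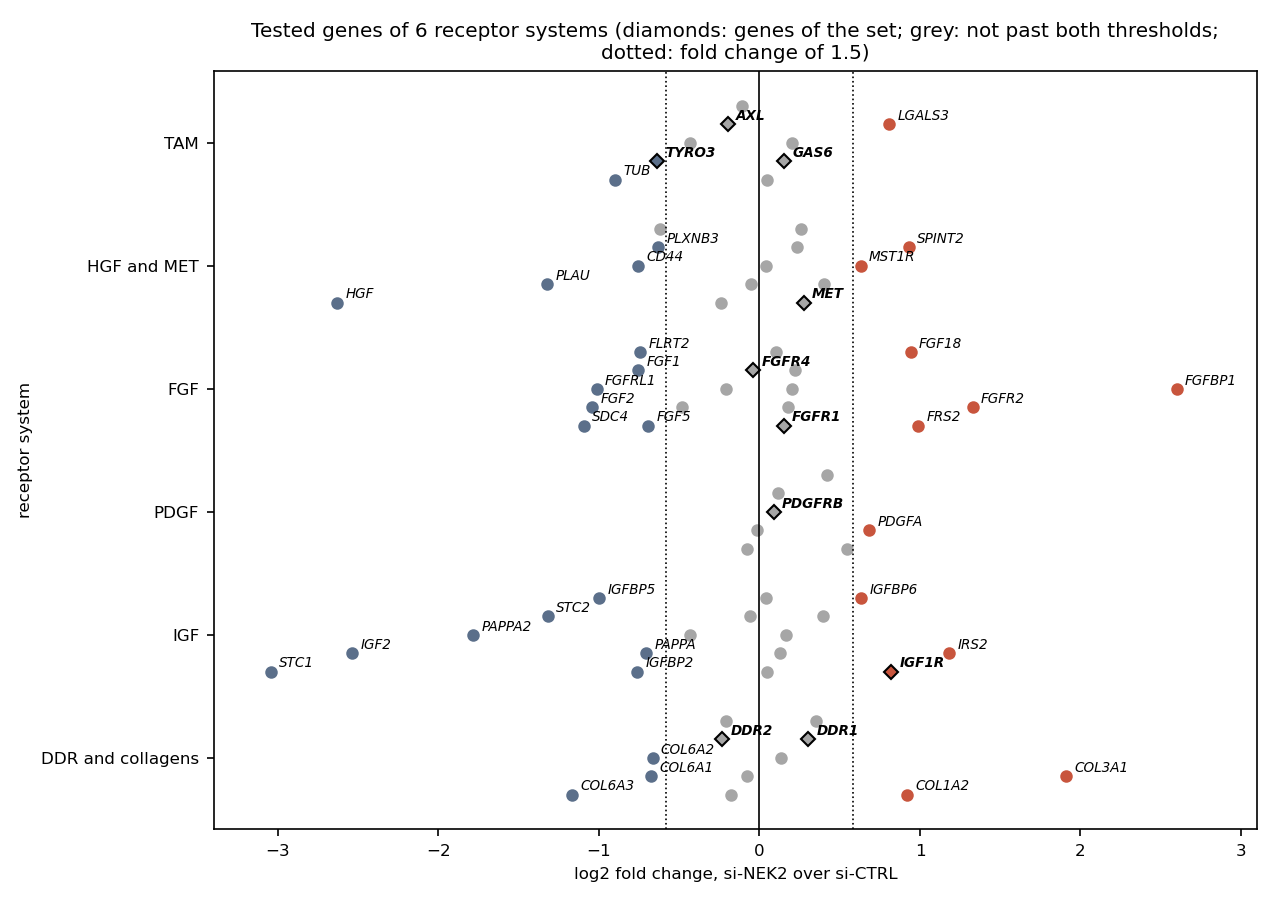
Log2 fold change in si-NEK2 over si-CTRL cells (x axis) of each tested gene of 6 receptor systems (y axis, points spread for legibility); diamonds are the 10 genes of the set, red and blue are genes past both thresholds, and dotted lines mark a fold change of 1.5. The 10 genes of the set lie between -0.64 and 0.82, and other genes of their systems reach from -3.04 for STC1 to 2.60 for FGFBP1. The receptors FGFR2 (1.33) and FGFRL1 (-1.02), which are not in the set, lie outside the range of the 10 genes.

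The lists around the receptors were examined together. Of 190 genes listed without the 10 and without the cell markers, 153 were tested, and 61 of these were regulated, 23 higher and 38 lower. This was 39.9% of the 153 tested genes of the lists, against 22.5% of all tested genes, with a median log2 fold change of -0.03. Between the lists the share ran from 16.7% of 6 PDGF genes to 62.5% of 16 FGF genes. For the 23 adaptors and effectors it was 21.7%, close to that of all tested genes. The lists were written with earlier results of these libraries known, so that the share is a description and was not tested. For 106 of the 153 genes the groups did not overlap, against 55% of all tested genes.

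Inside the cell, 2 of 23 tested adaptors and effectors rose, 3 fell and 18 were not regulated, with a median log2 fold change of -0.03. CRKL, an SH2 and SH3 adaptor, rose from 2802 ± 101 to 4489 ± 147 normalized counts, a log2 fold change of 0.68 (0.55, under a fold change of 1.5, with equal totals). PIK3R2, a regulatory subunit of PI3K in a row shared with IFI30, had a log2 fold change of 0.75 (adjusted p = 0.000396, limma). GAB2, a docking protein of the GRB2 pathway, fell from 781 ± 141 to 298 ± 24.9 normalized counts, a log2 fold change of -1.38. The adaptors SHC2 and SHC3 fell with log2 fold changes of -1.18 and -0.65, and SHC3 was under a fold change of 1.5 without si-CTRL replicate 1 (-0.49) and with quantile normalization (-0.53).

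Among 22 tested negative regulators of receptor kinases, 4 rose, 3 fell and 15 were not regulated, with a median log2 fold change of 0.06. LRIG1, a membrane protein that promotes receptor degradation, had 2248, 2017 and 1947 normalized counts in si-CTRL replicates and 659.6, 648 and 714 in si-NEK2 replicates. The gap between the groups exceeded the range within either group several times, at a log2 fold change of -1.62 (SE 0.09, adjusted p = 6.51e-06, limma). Its relative LRIG3 moved the other way (log2 fold change 0.85, adjusted p = 9.76e-05, limma). Of 5 suppressors of cytokine signalling in the list, SOCS6 (0.85) and SOCS5 (0.71) rose, SOCS3 fell (-0.93), and SOCS1 (-0.01) and SOCS2 (-0.14) were not regulated, of which SOCS5, SOCS1 and SOCS2 are named after their values were seen. CBLB, a ubiquitin ligase that acts on activated receptors, rose with a log2 fold change of 0.76, and the adaptor SH2B3 fell with -0.98.

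Of 14 tested proteases and inhibitors that act in receptor shedding, 4 rose, 1 fell and 9 were not regulated, and the median log2 fold change of 0.46 was the highest of the lists. ADAM10, a sheddase of AXL, MET and other receptors, rose from 6315 ± 149 to 9588 ± 361 normalized counts, a log2 fold change of 0.60 (adjusted p = 0.000124, limma). NCSTN, a subunit of gamma-secretase, rose with a log2 fold change of 0.63. Both were under a fold change of 1.5 with equal totals (0.47 and 0.50) and with quantile normalization (0.50 for each), and ADAM10 also without si-CTRL replicate 1 or si-NEK2 replicate 3 (0.58 for each). TIMP3, an inhibitor of ADAM proteases, rose with a log2 fold change of 1.31, from 1256 ± 87.4 to 3122 ± 76.0 normalized counts. TIMP1 fell with -0.59 (adjusted p = 0.000614, limma), and was under a fold change of 1.5 without si-CTRL replicate 1 (-0.52), si-NEK2 replicate 1 (-0.58) or si-NEK2 replicate 2 (-0.57), and with upper quartile scaling (-0.55). The protein and its cleavage were not measured.

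Levels of different genes were compared as normalized counts per kb of the longest protein-coding transcript (GENCODE). AXL had 10258 ± 1031 normalized counts per kb in si-CTRL cells and 8918 ± 289 in si-NEK2 cells, and ranked 1 of 57 receptor tyrosine kinases in both groups. It held 30.3% of the summed level of these kinases in si-CTRL cells and 29.6% in si-NEK2 cells. GAS6 followed among the 10 genes, with 2018 and 2243 normalized counts per kb, then MET with 1638 and 1976. FGFR1 (958 and 1064), DDR1 (869 and 1074), TYRO3 (368.5 and 237) and FGFR4 (269 and 262 normalized counts per kb) came next in si-CTRL cells, and IGF1R (151 and 265), PDGFRB (124 and 132) and DDR2 (13.8 and 11.8) last. In si-CTRL cells IGF1R and PDGFRB were the neighbours in this order whose libraries overlapped. In si-NEK2 cells DDR1 and FGFR1, IGF1R and FGFR4, and FGFR4 and TYRO3 overlapped, and IGF1R stood above TYRO3, which it had stood below in si-CTRL cells. Among the 57 kinases TYRO3 went from rank 14 to 19 and IGF1R from 19 to 16, while MET went from 5 to 4 and DDR2 from 35 to 34. These lengths assume that the longest transcript is the one used, and with the coding length 6 of the 10 genes kept their place, since MET passed GAS6 and IGF1R passed FGFR4.

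**Figure D4:**
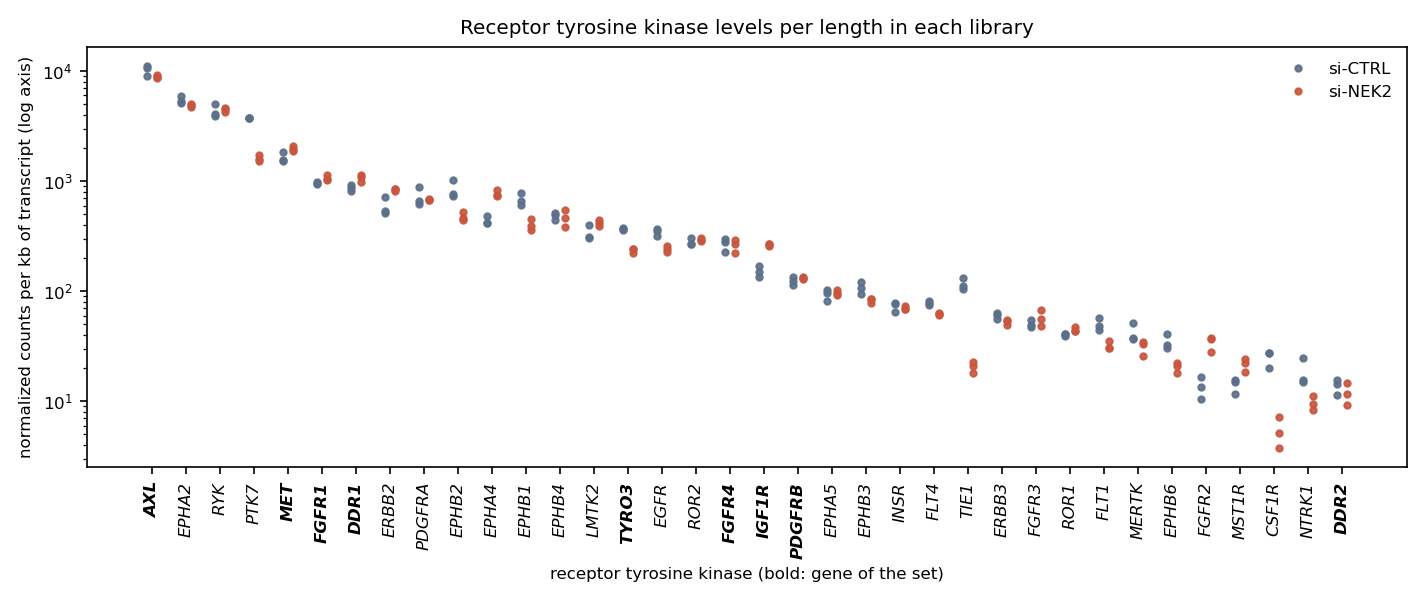
Normalized counts per kb of the longest transcript (y axis, log scale) for receptor tyrosine kinases with a mean of at least 10 per kb, in order of their mean over 6 libraries; points are si-CTRL and si-NEK2 libraries and genes of the set are in bold. AXL stands above all other receptors shown, between 8707 and 11082 per kb, and DDR2 is at the low end, between 9.18 and 15.5 per kb. The row of PDGFRA is shared with FIP1L1.

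In si-CTRL cells EPHA2, RYK and PTK7 stood between AXL and MET, and are named for this place after their values were seen. Of these, PTK7, a receptor with an inactive kinase domain, fell from 16017 ± 75.5 to 6874 ± 437 normalized counts, a log2 fold change of -1.22 (adjusted p = 6.51e-06, limma), and went from rank 4 to 5. Of 33 other receptor tyrosine kinases tested, 3 rose, 10 fell and 20 were not regulated, with a median log2 fold change of -0.18. Among those with a mean of 50 or more, the falls by the largest fold were those of TIE1, an endothelial receptor (452 ± 54.3 to 79.5 ± 9.11 normalized counts, log2 fold change -2.49), and CSF1R, the macrophage colony-stimulating factor receptor (99.5 ± 17.4 to 21.4 ± 7.04, log2 fold change -2.19). The endothelial markers CDH5 and PECAM1 had means of at most 30.5 normalized counts and the leukocyte marker PTPRC of at most 12.9, and their part in these falls was not tested. EPHA4, an ephrin receptor, rose from 2784 ± 245 to 4882 ± 338 normalized counts, a log2 fold change of 0.81, and FGFR2 and MST1R, given above, were the other two that rose.

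A ratio of 2 genes within a library does not depend on how libraries were scaled. In normalized counts, not corrected for length, the ratio of AXL to TYRO3 was 17.2, 16.4 and 14.5 in si-CTRL replicates 1, 2 and 3 and 22.7, 20.7 and 21.9 in si-NEK2 replicates 1, 2 and 3, without overlap and with a difference of 0.44 on the log2 scale. The ratio of MET to AXL was 0.233, 0.204 and 0.235 in si-CTRL replicates and 0.302, 0.313 and 0.316 in si-NEK2 replicates, also without overlap and with a difference of 0.47. For both ratios the exact permutation test over the 6 libraries gave a two-sided p of 0.1, the smallest that its 20 assignments allow, and 0.25 adjusted over 5 pairs. A design of 3 against 3 libraries cannot reach 0.05 in this test. GAS6 to AXL (difference 0.35, exact permutation p = 0.2), DDR1 to DDR2 (0.54, exact permutation p = 0.2) and FGFR1 to FGFR4 (0.19, exact permutation p = 0.5) overlapped between the groups. With 1 library left out, the difference of DDR1 to DDR2 was lowest at 0.32, when si-NEK2 replicate 1 was left out, and highest at 0.76, when si-NEK2 replicate 3 was, and that of FGFR1 to FGFR4 between 0.03 (without si-NEK2 replicate 3) and 0.33 (without si-CTRL replicate 1).

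**Figure D5:**
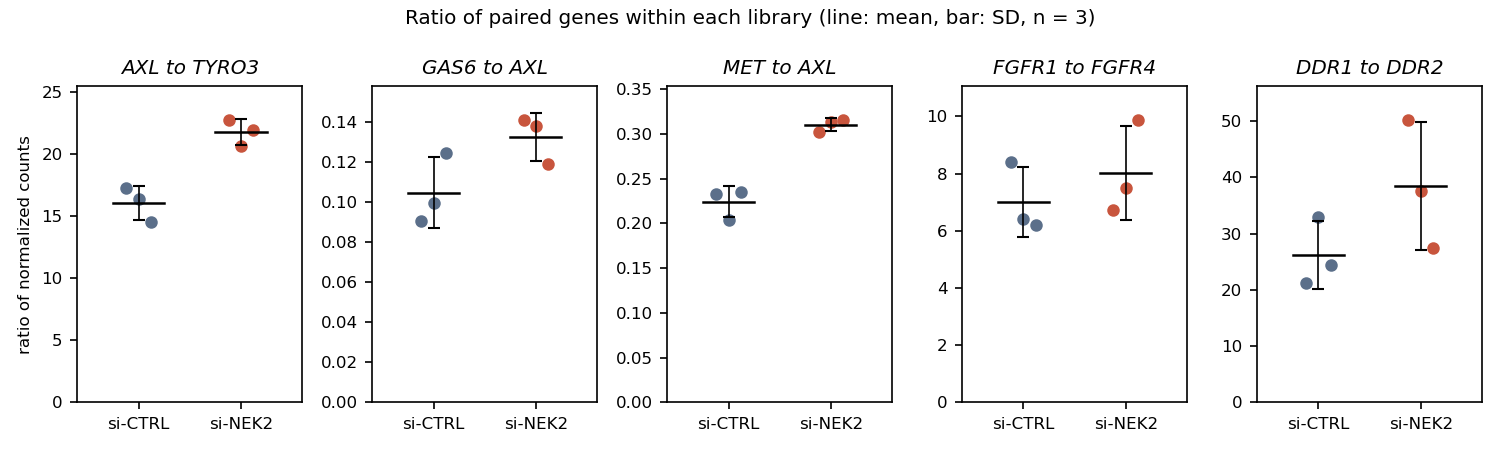
Ratio of normalized counts of paired genes within each library (y axis, each panel from 0 on its own scale); points are libraries, lines are means and bars are SD (n = 3). The ratios of AXL to TYRO3 (14.5 to 17.2 against 20.7 to 22.7) and of MET to AXL (0.204 to 0.235 against 0.302 to 0.316) are apart, and the other 3 overlap.

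Across the 6 libraries, the genes whose centred log2 values lay nearest to those of AXL, among 12906 genes with a symbol and a mean of at least 50 normalized counts, included YARS and MYH10, both at a root mean square distance of 0.0353. Those nearest to MET were the row of GTF3C5 and MIR6877, then DROSHA and DNAJC11, at distances of 0.0091, 0.019 and 0.022. The log2 fold changes of YARS and MYH10 were -0.19 and -0.23, and those of the 3 nearest to MET between 0.26 and 0.28. With 6 libraries in 2 groups, a small distance says mainly that a gene had a similar fold change, and it is given as a description. In bulk RNA, a change in every cell and a change in the share of cells with the transcript cannot be told apart for any of these genes.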

How the data were processed

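Stranded polyA libraries (TruSeq Stranded mRNA kit) of MDA-MB-231 cells were sequenced, 3 from si-CTRL and 3 from si-NEK2 cells. The authors deposited a gene-level signal for each library (read number over the library's DESeq2 size factor), annotated with FAST DB on hg19. The submitters' processing notes name FastQC, Picard, SAMtools, STAR 2.4.0 and DESeq2. The counter and its handling of strand are not given in the sources used here, so that overlapping genes may share reads. The signal was a whole multiple of 1 read (within 0.01 reads) for 100% of values, which gave back the reads.

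The 10 genes and the lists around them were chosen with earlier results of these data known. Groups follow the sample records. After a filter (mean ≥ 10 normalized counts, 18717 of 74852 genes kept), log2(value + 1) was fitted with limma 3.58.1 (lmFit, then eBayes with an intensity trend; R 4.3.3) over all 6 libraries and with no covariate. On this scale the fold change of weakly expressed genes is understated. Benjamini-Hochberg adjustment covered every tested gene. Named genes are NEK2, the 10 genes, the up to 3 largest increases and decreases in each list among regulated genes with a mean of at least 50, and the 3 nearest profiles to AXL and to MET, of which 1 is not reported here; other genes are named as chosen after their values were seen. Promoter windows are those of RefSeq, in which 9 of the 10 genes were used, and the siRNA sequences were not used here. The script was tested on simulated data. Replicates with the same number did not deviate together (correlations of -0.09, 0.05 and -0.15). Alternatives were other pseudocounts (0.1 and 5), filters, scalings, a replicate block, each library left out, edgeR 4.0.16 and DESeq2 1.42.0 on the recovered reads, and other thresholds.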

Additional observations from a re-analysis of the deposited data

How the results depend on the processing

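The number of regulated genes among the 10 was 2 in every alternative but one, TYRO3 and IGF1R keeping their direction and side of the thresholds in each fit. A fold change of at least 2 removed genes by construction and left 0 of the 10, 23 of the listed pathway genes in place of 61, and 1637 of all genes in place of 4213. The per-length order kept 6 of 10 places with the coding length. FGFR4 changed sign with quantile normalization (0.00021) and lay between -0.16 and 0.074 with single libraries left out (0.041 without si-CTRL replicate 3 and 0.074 without si-NEK2 replicate 3), and PDGFRB changed sign to -0.0392 with equal totals, neither near a threshold. On the recovered reads edgeR called 4205 genes and DESeq2 4039, and each called 2 of the 10. The sample labels do not say whether libraries with the same replicate number belong together. The correlations given with the processing, from groups of 3 libraries, cannot decide this. With the replicate number as a block 4084 genes were regulated, among them 2 of the 10 and 61 of the pathway genes, and the adjusted p of MET was 0.066 (limma). Equal totals moved the all-gene median to -0.11 and the share of regulated genes that were higher from 36.6% to 21.3%, and quantile normalization moved that share to 45.9%. Of the 10 genes DDR2 had the fewest reads, at most 154 in a library, and the cause of its spread was not tested.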

Other observations

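Other rows of the annotation overlap most of the 10 genes, and apart from TUBB over DDR1 they held few reads. GAS6-AS1, antisense to GAS6, had 21.7 normalized counts in si-CTRL cells and 29.1 in si-NEK2 cells (log2 fold change 0.40, adjusted p = 0.207, limma). IRAIN, a noncoding RNA at the start of IGF1R, had 25.1 and 27.1 (log2 fold change -0.02, adjusted p = 0.978, limma). It was not regulated at this low level, and whether it moved with IGF1R was not tested. The largest row within FGFR1, which carries no symbol, had 21.8 and 16.0 normalized counts. Over both groups these rows had means of 0.308% to 1.03% of those of the genes they overlap.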
